A study of Mus musculus with 78 samples.

Results

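The 8 genes described here make, supply, brake and receive the nitric oxide signal of the artery wall: Nos3, Gch1, Ddah1, Ddah2, Cav1, Cav2, Gucy1a1 and Gucy1b1. They were taken by name from 17097 genes with a probe set of their own, and each was read from its probe set with the highest mean over 78 arrays. All 8 were among the 11344 genes tested, those that lay above the median of their own array on at least 4 arrays. Nos3, Gch1, Ddah1, Ddah2, Cav1 and Cav2 lay above it on all 78 arrays, Gucy1a1 on 61 and Gucy1b1 on 30.

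In all 39 mice the left common carotid artery (LCA) was partially ligated, an operation that leaves it with low and disturbed flow, and the right common carotid artery (RCA) of the same mouse was the control. Mice received vehicle or atorvastatin, a statin that blocks an early enzyme of cholesterol synthesis, by mouth each day at 10 mg per kg of body weight from 2 days before the operation. Both arteries were taken 12 h, 24 h, 48 h or 2 weeks later, from 5 mice for each time and treatment, except 4 for atorvastatin at 48 h. RNA enriched for endothelium was flushed from each artery with a lysis reagent and read on 1 expression array. The labels give no strain, sex or age, and every control artery came from an operated mouse. Mice are numbered as in the sample titles, 1 to 5 for vehicle and 6 to 10 for atorvastatin. Values are log2 signals, on which a difference of 1 is a 2-fold change, and a difference is LCA minus RCA within a mouse unless stated. Errors beside differences are standard errors (SE) of the limma fit, and a gene is called changed at a Benjamini-Hochberg adjusted p under 0.05.

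Endothelial nitric oxide synthase, the product of Nos3, turns arginine into nitric oxide and citrulline with the help of the cofactor tetrahydrobiopterin. GTP cyclohydrolase, from Gch1, is the rate-limiting enzyme of that cofactor's synthesis. Asymmetric dimethylarginine competes with arginine at the synthase, and the dimethylarginine dimethylaminohydrolases of Ddah1 and Ddah2 break it down. Caveolin-1 forms caveolae, the flask-shaped pits of the endothelial membrane, together with caveolin-2 and the cavins, and holds the synthase inactive until calmodulin displaces it. Nitric oxide that reaches smooth muscle binds soluble guanylate cyclase, a pair of an alpha and a beta subunit encoded by Gucy1a1 and Gucy1b1, and the cGMP it makes relaxes the vessel. Steady laminar flow is well known to raise Nos3 in endothelial cells.

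The labelled tissue was checked against marker genes. All 15 genes of an endothelial list passed the filter, and its group means lay between 9.33 and 9.68 in the LCA and between 9.41 and 9.82 in the RCA, with the LCA lower by 0.02 to 0.46. Of 10 smooth muscle markers 7 were tested, and all 7 were higher in the LCA at 2 weeks, with a mean list difference of 2.61 under vehicle and 3.48 under atorvastatin. All 12 macrophage markers were higher at 2 weeks (4.29 and 3.92), and the 4 tested neutrophil markers were higher at 48 h (4.13 and 3.98). The lowest neutrophil list difference of a vehicle mouse at 48 h was -0.11. In the RCA at 48 h that list read at most 4.18 and 3.75, below every array's median (4.59 to 4.77). A neutrophil marker could thus pass the filter through the 48 h LCA arrays alone, so the count of tested markers higher there is no independent check. The fibroblast list had RCA group means between 7.64 and 8.58, and was lower in the LCA at 48 h by means of 1.07 and 0.60. The T cell list was higher in the LCA at 2 weeks (1.47 and 0.43). In the RCA under atorvastatin at 2 weeks the highest arrays read 9.56 on the adipocyte, 9.52 on the skeletal muscle and 10.62 on the erythroid list. Under vehicle the highest RCA arrays at 2 weeks read 8.98, 5.07 and 9.89 on these lists. The adipocyte list also reached 8.54 in the LCA under vehicle at 12 h and 8.53 in the RCA under atorvastatin at 24 h. No B cell, Schwann cell or thyroid marker passed the filter. On the smooth muscle list the RCA of vehicle mouse 3 at 12 h (8.12) and of atorvastatin mouse 9 at 24 h (7.54) were the highest of their groups, and vehicle mouse 2 was the only mouse at 2 weeks whose list was not higher in the LCA (-0.30). In bulk RNA, fewer cells of a type and less RNA per cell cannot be told apart.

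Nos3 (probe set 1422622_PM_at, chr5:24364816-24384474 in GRCm38.p6) was lower in the LCA in 39 of 39 mice, and in 8 of 8 groups every LCA lay below every RCA. Under vehicle at 12 h, mice 1 to 5 had LCA values of 7.52, 7.77, 7.14, 7.79 and 7.47 against RCA values of 8.47, 7.91, 8.04, 8.25 and 8.25. At 24 h the LCA values were 7.78, 7.28, 7.53, 7.55 and 6.92 and the RCA values 8.55, 8.83, 8.90, 9.21 and 8.19. The lowest RCA thus stood above the highest LCA at both early times, by a small margin at 12 h. At 48 h the LCA values were 6.90, 6.79, 6.64, 6.87 and 6.75, and the RCA values 8.17, 8.31, 8.43, 8.10 and 7.57. At 2 weeks the LCA read 6.29, 6.41, 6.17, 6.03 and 6.70, and the RCA 8.16, 8.29, 7.63, 8.12 and 8.50. The LCA values were lowest at 2 weeks, while the RCA values lay where they had been at 12 h and 48 h.

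Under atorvastatin at 12 h, mice 6 to 10 had Nos3 values of 7.37, 7.66, 6.88, 6.98 and 7.46 in the LCA and 8.31, 8.25, 8.70, 7.74 and 8.22 in the RCA. At 24 h the LCA values were 8.24, 7.67, 7.35, 7.10 and 7.47 against 8.39, 8.62, 8.63, 8.87 and 8.60, with mouse 6 the closest to its control at a difference of -0.15. At 48 h mice 6 to 9 had 6.50, 7.25, 6.58 and 7.10 against 8.15, 8.62, 8.56 and 8.28. At 2 weeks the LCA read 6.28, 6.36, 6.92, 6.26 and 5.99 and the RCA 8.19, 8.57, 7.93, 7.92 and 8.35. The arteries did not overlap here either, with the smallest gap between them at 12 h and the largest at 2 weeks.

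Under vehicle the Nos3 difference was -0.65 (SE 0.19, adjusted p = 0.0576) at 12 h, which missed the threshold, and -1.32 (SE 0.19, adjusted p = 7.68e-06) at 24 h. It was -1.32 (adjusted p = 2.35e-06) at 48 h and -1.82 (adjusted p = 2.17e-09) at 2 weeks, which is 3.53-fold lower. Under atorvastatin it was -0.97 (adjusted p = 0.00255) at 12 h, -1.05 (adjusted p = 0.000212) at 24 h, -1.54 (adjusted p = 2.64e-06) at 48 h and -1.83 (adjusted p = 1.39e-09) at 2 weeks. Nos3 was thus called lower at every time but 12 h under vehicle. The 12 h call under atorvastatin rested on mouse 8, whose difference was -1.82 while the other 4 lay between -0.93 and -0.59; without it the difference was -0.76 (adjusted p = 0.0552). Nos3 lay lower relative to the endothelial list as well. With each array centred on that list, its difference ran from -1.59 to -0.62 over the 8 groups and was called in 7.

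**Figure D1:**
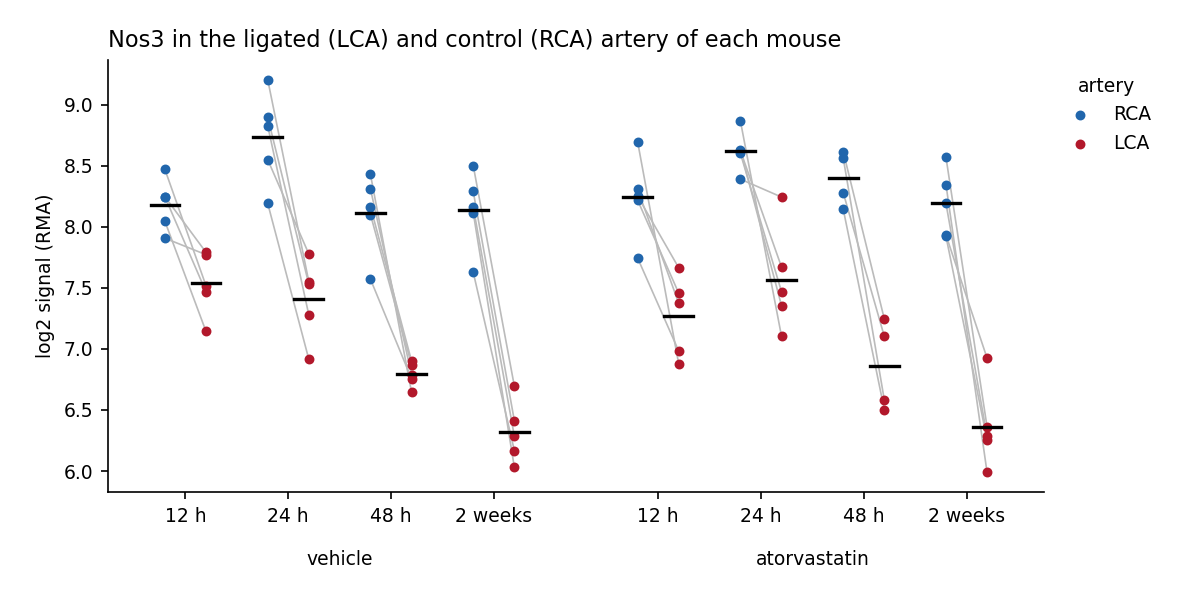
Nos3 log2 signal (y axis) in the RCA (blue) and LCA (red) of each mouse, by time and treatment (x axis), with lines joining the arteries of a mouse and black bars at group means. Every red point of a group lies below every blue point, and the LCA means go from 7.54 at 12 h to 6.32 at 2 weeks under vehicle and from 7.27 to 6.36 under atorvastatin.

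The course of Nos3 over time differed between the arteries. Its difference at 2 weeks was larger than at 12 h by -1.18 under vehicle (SE 0.26, adjusted p = 0.0019) and by -0.86 under atorvastatin (SE 0.26, adjusted p = 0.0212). In the LCA alone, Nos3 fell by 0.62 from 24 h to 48 h under vehicle (SE 0.20, adjusted p = 0.017) and by 0.71 under atorvastatin (SE 0.21, adjusted p = 0.013). From 12 h to 2 weeks it fell by 1.22 (adjusted p = 1.6e-05) and by 0.91 (adjusted p = 0.000678). In the RCA of vehicle mice it rose by 0.55 from 12 h to 24 h (SE 0.18, adjusted p = 0.0334). At 48 h its mean there was 8.12 ± 0.33 (SD, n = 5). The step from 24 h to 48 h in that artery was called by limma for 0 members (2 at an unadjusted p under 0.05) and 0% of all genes. The vehicle differences at 24 h and 48 h were of one size, while the mean level in the LCA was lower at 48 h.

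Under vehicle 0 of 8 members were called at 12 h by limma (1 at an unadjusted p under 0.05), where 2.39% of all tested genes were called; 3 at 24 h (14.3%), 4 at 48 h (36.2%) and 5 at 2 weeks (27.8%). Under atorvastatin 1 was called at 12 h (1.68%), 3 at 24 h (13.1%), 5 at 48 h (31.8%) and 4 at 2 weeks (29.9%). The members' counts were not tested against these shares. Averaged over the 8 groups all 8 members were called, against 53.2% of all genes: Nos3 (-1.31), Ddah2 (-0.59), Gch1 (-0.33), Cav2 (-0.23) and Cav1 (-0.10, which turned to 0.12 with arrays centred on the endothelial list, where Gch1 at -0.11 and Cav2 at -0.0039 were not called) lower in the LCA, and Ddah1 (0.85), Gucy1a1 (0.71) and Gucy1b1 (0.62) higher. Over the 8 groups the sign of the mean difference was the same for Nos3 alone. The difference changed over the 4 times for all 8 members under vehicle, by an F test that called 32.9% of all genes, and for 6 under atorvastatin (33.5%), where Cav2 (adjusted p = 0.103) and Ddah2 (adjusted p = 0.14) were not called.

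**Figure D2:**
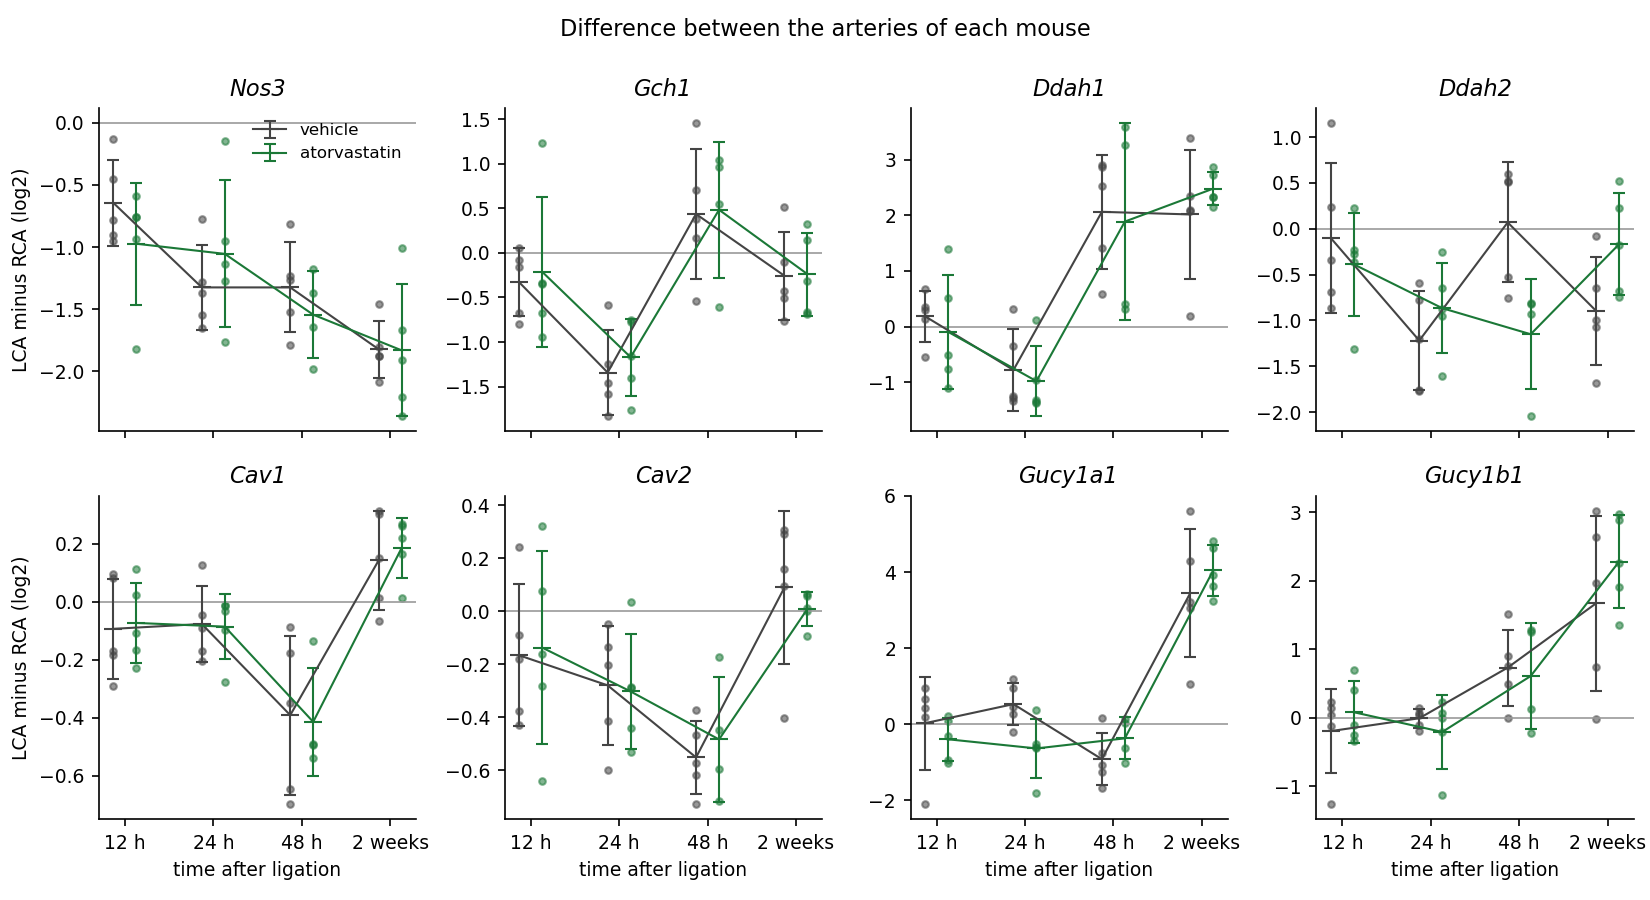
LCA minus RCA in log2 (y axis) of the 8 genes at each time (x axis), with 1 point per mouse and the mean and SD of each group, vehicle and atorvastatin apart. Nos3 is below 0 in every mouse, Gch1 dips at 24 h, Ddah1 is high at 48 h and 2 weeks, Cav1 and Cav2 dip at 48 h (relative to the endothelial list Cav1 under atorvastatin turned to 0.05), and Gucy1a1 and Gucy1b1 are high at 2 weeks.

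Gch1 (probe set 1420499_PM_at, chr14:47153895-47189413), the cofactor enzyme, was called lower in the LCA at 24 h and at no other time. Under vehicle at 24 h, mice 1 to 5 had LCA values of 5.92, 6.87, 6.80, 6.79 and 6.64 against RCA values of 7.50, 7.46, 8.26, 8.03 and 8.47. Under atorvastatin mice 6 to 10 had 7.0, 7.25, 6.24, 7.07 and 7.08 against 7.78, 8.0, 8.0, 8.47 and 8.24. The arteries did not overlap in either group, and mouse 1 and mouse 8 had the lowest LCA values. The difference was -1.34 under vehicle (SE 0.26, adjusted p = 0.000431), which is 2.54-fold lower, and -1.17 under atorvastatin (SE 0.26, adjusted p = 0.00193).

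At 48 h the Gch1 picture was mixed. LCA values under vehicle were 8.37, 7.44, 8.57, 7.28 and 8.47, in 4 of 5 mice above the RCA of the same mouse, and under atorvastatin 8.68, 6.96, 8.83 and 8.50, in 3 of 4. The arteries overlapped, and the differences of 0.43 (adjusted p = 0.187) and 0.48 (adjusted p = 0.204) were not called. Without vehicle mouse 4 the difference was 0.68 (adjusted p = 0.0464), and without atorvastatin mouse 7 it was 0.85 (adjusted p = 0.0299). The change from 24 h to 48 h was, by 1.78 under vehicle (SE 0.36, adjusted p = 0.00096) and 1.65 under atorvastatin (SE 0.38, adjusted p = 0.00261). In the LCA alone Gch1 rose by 1.43 (adjusted p = 0.00104) and 1.32 (adjusted p = 0.00394) between those times, and fell by 0.92 (adjusted p = 0.0378) and 1.09 (adjusted p = 0.0215) from 48 h to 2 weeks. A second probe set of Gch1, with a lower mean of 5.57, did not show the 24 h difference. It gave -0.27 under vehicle (adjusted p = 0.464) and -0.32 under atorvastatin (adjusted p = 0.392). At 48 h it gave -0.39 (adjusted p = 0.177), opposite in sign to the first probe set, and 0.06 (adjusted p = 0.875). Its change from 24 h to 48 h was not tested. The mean of both probe sets was still called at 24 h, at -0.81 (adjusted p = 0.0061) and -0.74 (adjusted p = 0.0119).

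The ratio of the 3′ to the 5′ control probes of Gapdh, which is higher where RNA is more degraded, differed between the arteries in several groups. It was higher in the LCA by a mean of 0.94 under vehicle and 0.47 under atorvastatin at 24 h, by 0.67 under atorvastatin at 12 h (up to 2.23 in 1 mouse), and lower by 0.38 at 48 h under vehicle. With that ratio as a covariate the Gch1 difference at 24 h was -1.47 (adjusted p = 0.00123) and -1.21 (adjusted p = 0.0017), no smaller than without it. For Nos3 at 24 h under vehicle it was -1.03 (adjusted p = 0.000239), and for Ddah2 -0.78 (adjusted p = 0.0491), both smaller than without it. For Nos3 at 12 h under atorvastatin it was -0.80 (adjusted p = 0.0069).

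Of the other genes of tetrahydrobiopterin synthesis and recycling, 3 were tested. Pts, which encodes the step after Gch1, was higher in the LCA at 48 h under vehicle (0.39, adjusted p = 0.044) and at 2 weeks under vehicle (0.55, adjusted p = 0.00555) and atorvastatin (0.40, adjusted p = 0.0436). Spr, sepiapterin reductase, the last step of synthesis, was lower at 2 weeks under atorvastatin (-0.91, adjusted p = 0.0214). At 12 h and 24 h none of the 3 was called, so the 24 h difference of Gch1 had no counterpart called in the rest of that path. Of the synthases themselves Nos1 and Nos2 did not pass the filter, and Nos3 was the only one tested.

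Ass1, argininosuccinate synthase, which helps rebuild arginine from the citrulline that nitric oxide synthesis leaves, was lower in the LCA at 24 h, at -2.14 under vehicle (SE 0.43, adjusted p = 0.000809) and -1.81 under atorvastatin (adjusted p = 0.0043). It was also lower at 48 h (-1.30 and -1.86) and at 2 weeks, at -2.31 (adjusted p = 8.23e-05) and -3.21 (adjusted p = 3.35e-07), and at 12 h it was not called (-0.07 and -0.46). Asl, which encodes the next enzyme of that path, was higher at 24 h under both treatments (0.51 and 1.04). Slc7a2, a cationic amino acid transporter, was lower at 48 h (-0.98 and -1.26) and at 2 weeks (-1.05 and -0.91). The arginases, which use up arginine, were each called higher at 48 h in 1 treatment, Arg2 under vehicle (1.28, adjusted p = 0.0015; 0.57, adjusted p = 0.214, under atorvastatin) and Arg1 under atorvastatin (1.6, adjusted p = 0.0129; 0.35, adjusted p = 0.56, under vehicle). Slc7a7, a transporter subunit found in macrophages among other cells, was higher at 2 weeks (0.88 and 0.65). Of the 7 tested, 1 was higher and 1 lower at 24 h in each treatment, 1 and 2 under vehicle and 2 and 2 under atorvastatin at 48 h, and 1 and 2 at 2 weeks. Of all tested genes 14.3% and 13.1% were called at 24 h, 36.2% and 31.8% at 48 h, and 27.8% and 29.9% at 2 weeks.

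Ddah1 (probe set 1455400_PM_at, chr3:145758692-145894277) and Ddah2 (1416457_PM_at, chr17:35059035-35062099), both clear asymmetric dimethylarginine. Ddah1 was called higher in the LCA at 48 h and 2 weeks in both treatments. Ddah2 was called lower at 24 h in both, at 48 h under atorvastatin and at 2 weeks under vehicle.

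Ddah1 under vehicle at 48 h had LCA values of 10.96, 10.23, 11.12, 8.91 and 11.23 in mice 1 to 5 and RCA values of 8.43, 8.81, 8.22, 8.32 and 8.37. Every LCA lay above every RCA, with mouse 4 closest to the controls. Under atorvastatin at 48 h the LCA values were 11.10, 8.85, 8.90 and 10.91, in 2 separate pairs, and the RCA values 7.52, 8.54, 8.50 and 7.65. Mice 6 and 9 thus differed by 3.58 and 3.26 and mice 7 and 8 by 0.31 and 0.40. The group differences were 2.06 (SE 0.41, adjusted p = 0.00018), a 4.17-fold higher level, and 1.89 (SE 0.46, adjusted p = 0.0018). Without mouse 6 the latter was 1.32 (adjusted p = 0.0594) and no longer called. The macrophage list was higher in the same groups by means of 2.04 and 2.56. The fibroblast list differed by -1.67, 0.26, 0.31 and -1.31 in atorvastatin mice 6 to 9. In vehicle mice 1 to 5 it differed by -1.99, -0.49, -1.74, 0.21 and -1.32. The part of these cell types in Ddah1 was not tested.

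At 2 weeks the LCA values of Ddah1 were 10.46, 7.71, 10.19, 10.34 and 10.71 under vehicle, against 7.07, 7.53, 8.10, 8.01 and 8.63 in the RCA. Mouse 2, the mouse without a higher smooth muscle list in the LCA, was the low value. Under atorvastatin the LCA values were 10.997, 10.94, 10.33, 10.75 and 10.68, against 8.28, 8.07, 8.18, 8.41 and 8.36, with no overlap. The differences were 2.01 (adjusted p = 0.000225), or 2.47 (adjusted p = 2.91e-05) without mouse 2, and 2.48 (adjusted p = 9.86e-06). Before that, at 24 h, Ddah1 was not called (-0.78, adjusted p = 0.208; -0.98, adjusted p = 0.112), and its difference moved from 24 h to 48 h by 2.84 under vehicle (SE 0.58, adjusted p = 0.000928) and by 2.87 under atorvastatin (SE 0.61, adjusted p = 0.00136). Of the 4 other Ddah1 probe sets all were higher at 48 h under both treatments and at 2 weeks under atorvastatin, and 3 at 2 weeks under vehicle, the exception reading 0.52 (adjusted p = 0.166). Of these, 1 was also called lower at 24 h under atorvastatin (-1.48, adjusted p = 0.0165).

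Ddah2 under vehicle at 24 h had LCA values of 5.33, 5.24, 5.62, 6.13 and 5.08 and RCA values of 6.53, 6.02, 7.38, 6.72 and 6.85. It was lower in the LCA of all 5 mice, and the arteries overlapped only in the LCA of mouse 4 and the RCA of mouse 2. Under atorvastatin at 24 h the LCA values were 6.06, 6.02, 5.33, 5.68 and 5.17, all below the RCA values of 6.70, 6.28, 6.28, 6.55 and 6.77. The differences were -1.22 (SE 0.26, adjusted p = 0.00168) and -0.87 (SE 0.26, adjusted p = 0.0246). The latter was not called without mouse 8 (adjusted p = 0.0732), mouse 9 (0.0622) or mouse 10 (0.162).

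At the later times Ddah2 was called in 1 treatment at each. At 48 h under atorvastatin it was lower, at -1.15 (SE 0.29, adjusted p = 0.00301), or -0.85 (adjusted p = 0.0524) without mouse 8, whose difference was -2.05 while the other 3 lay between -0.93 and -0.81. Under vehicle at 48 h it was 0.07 (adjusted p = 0.862). At 2 weeks under vehicle it was lower, at -0.90 (SE 0.26, adjusted p = 0.00971), or -0.70 (adjusted p = 0.0854) without mouse 4, and under atorvastatin it was -0.17 (adjusted p = 0.696). The test of the difference between treatments gave -1.22 at 48 h (SE 0.40, unadjusted p = 0.00403, adjusted p = 0.95) and 0.73 at 2 weeks (SE 0.37, unadjusted p = 0.0595, adjusted p = 1), so neither treatment contrast was called. Prmt1, an enzyme that makes the methylated arginines Ddah1 and Ddah2 degrade, was the other tested gene of this group and was higher in the LCA at 48 h (1.5, adjusted p = 0.00148, and 1.36, adjusted p = 0.00996).

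**Figure D3:**
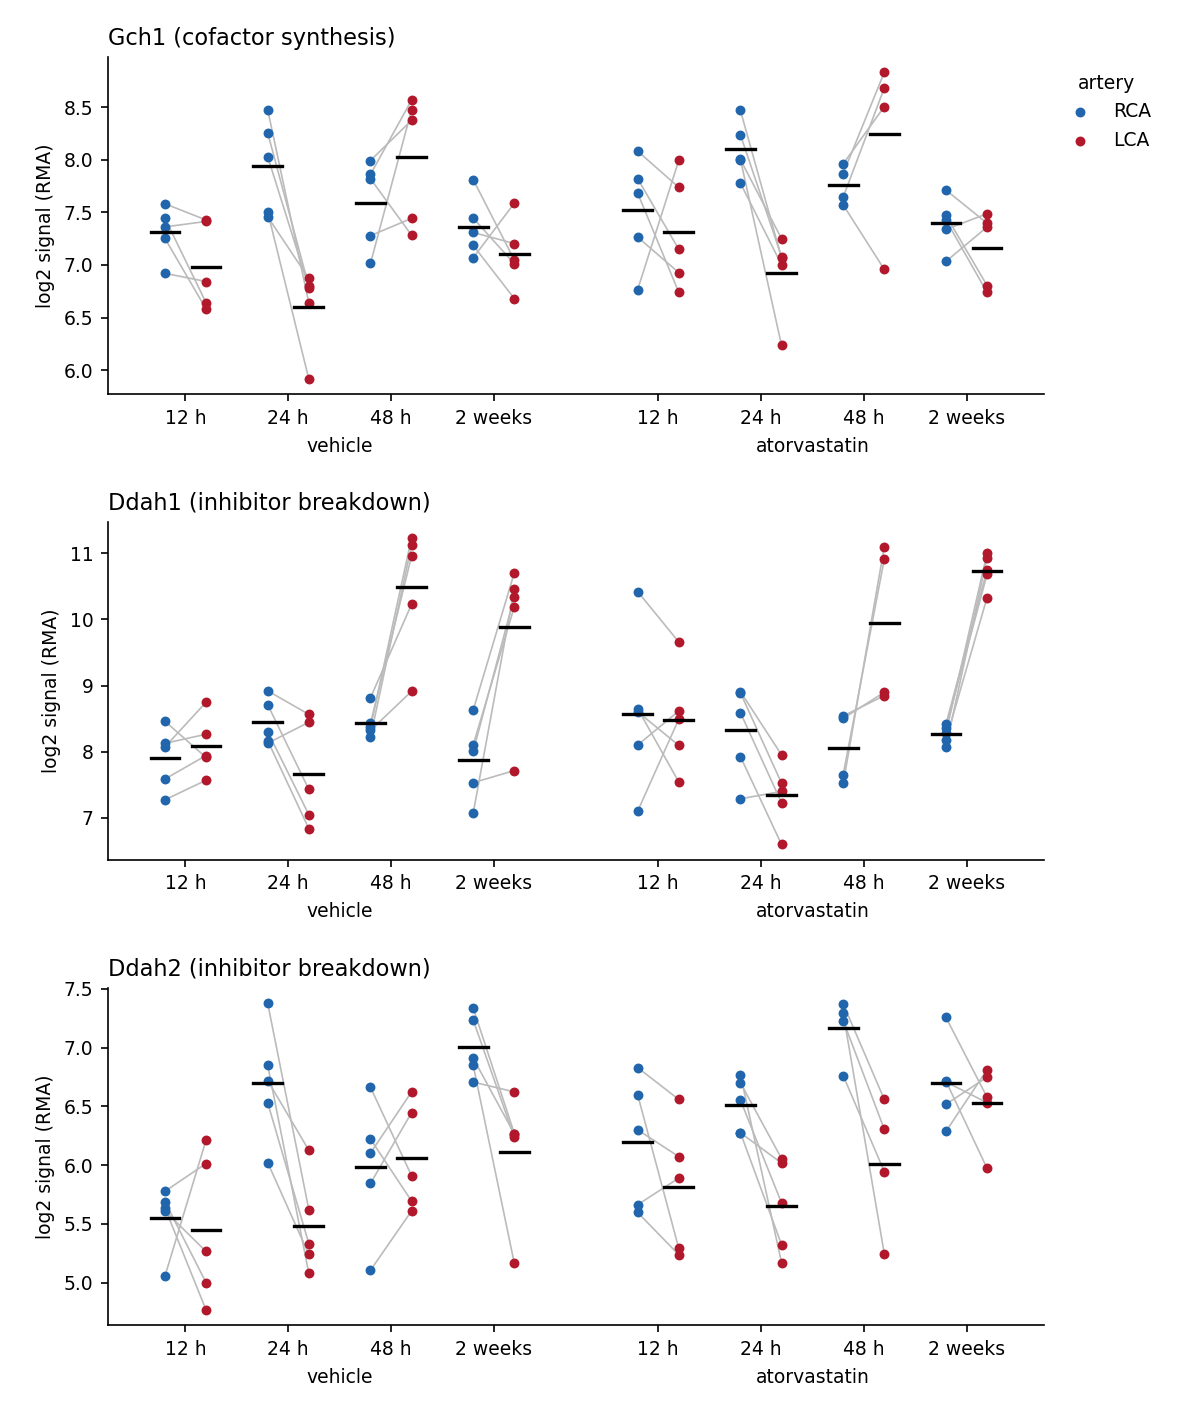
Log2 signal (y axes) of Gch1, Ddah1 and Ddah2 in the RCA (blue) and LCA (red) of each mouse by time and treatment (x axes), with lines joining the arteries of a mouse and black bars at group means. The LCA of Gch1 is below the RCA at 24 h in all 10 mice, the LCA of Ddah1 at 48 h under atorvastatin falls in 2 pairs, and the RCA of Ddah2 under vehicle goes from a mean of 5.55 at 12 h to 7.01 at 2 weeks.

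Cav1 and Cav2, the caveolins, are neighbours on chromosome 6, and both were called lower in the LCA at 48 h in both treatments, although Cav1 under atorvastatin turned to 0.05 with arrays centred on the endothelial list. Cav2 (probe set 1417327_PM_at) lies at chr6:17281185-17289130 and Cav1 (1449145_PM_a_at) at chr6:17306335-17341328 in GRCm38.p6. Their promoters are shown because the genes are adjacent and both were called at 48 h. Each run is the 250 bases before a RefSeq start of the gene, chr6:17280935-17281184 for Cav2 and chr6:17306085-17306334 for Cav1, both on the + strand, with capitals at GGGCGG, the core of a GC box, at CACCC, the core bound by Krüppel-like factors, and at TGACTCA, the AP-1 site, on either strand.
Cav2: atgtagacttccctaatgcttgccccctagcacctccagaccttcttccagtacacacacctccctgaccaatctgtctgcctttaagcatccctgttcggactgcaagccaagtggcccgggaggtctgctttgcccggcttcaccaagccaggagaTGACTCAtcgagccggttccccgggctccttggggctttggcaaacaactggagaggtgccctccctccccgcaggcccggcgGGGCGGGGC
Cav1: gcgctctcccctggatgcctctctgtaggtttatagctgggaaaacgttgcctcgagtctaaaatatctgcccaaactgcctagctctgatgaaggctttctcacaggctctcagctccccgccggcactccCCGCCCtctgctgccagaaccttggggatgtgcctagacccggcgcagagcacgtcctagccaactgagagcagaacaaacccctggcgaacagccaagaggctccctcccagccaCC
In the window of 300 bases (250 before the start and 50 after it), Cav2 held TGACTCA 92 bases before the start, a motif present in 5.2% of 32851 RefSeq promoters, and GGGCGG 2 times in overlapping copies. Cav1 held GGGCGG on the opposite strand 118 bases before the start and again across it, of which the last capitals show the first letters. A second RefSeq start of Cav1, not shown, had no GGGCGG in its window and held CACCC on the opposite strand 28 bases after the start. GGGCGG occurs in 35.7% of all promoters. These matches describe letters and not binding sites.

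Under vehicle at 48 h, Cav1 read 11.06, 11.66, 11.44, 11.64 and 11.29 in the LCA of mice 1 to 5 and 11.76, 11.74, 11.78, 11.82 and 11.94 in the RCA. Cav2 read 9.97, 10.15, 9.82, 10.16 and 9.79 against 10.54, 10.62, 10.44, 10.54 and 10.52. Every LCA lay below every RCA for both genes, and the same held in the 4 atorvastatin mice at 48 h. The differences were -0.39 for Cav1 (SE 0.09, adjusted p = 0.00103) and -0.55 for Cav2 (SE 0.12, adjusted p = 0.000381) under vehicle, and -0.41 (adjusted p = 0.0021) and -0.48 (adjusted p = 0.00462) under atorvastatin, that is 1.31- to 1.47-fold lower. Without mouse 6 the Cav2 difference under atorvastatin was -0.41 (adjusted p = 0.056) and not called. A second Cav2 probe set was also lower at 48 h, at -0.75 and -1.08.

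By 2 weeks neither caveolin was called (Cav1 0.14 and 0.19, Cav2 0.09 and 0.01). From 48 h to 2 weeks the Cav1 difference rose by 0.53 under vehicle (adjusted p = 0.01) and 0.60 under atorvastatin (adjusted p = 0.00445), and that of Cav2 by 0.64 under vehicle (adjusted p = 0.0161). The fibroblast list was lower in the LCA at 48 h by means of 1.07 and 0.60, and its part in the caveolin differences was not tested. The endothelial list as a whole was lower in the LCA at 48 h by means of 0.32 and 0.46. Relative to that list, with each array centred on it, Cav1 at 48 h was -0.07 (adjusted p = 0.737) under vehicle and turned to 0.05 (adjusted p = 0.826) under atorvastatin. Cav2 on that scale was -0.23 (adjusted p = 0.325) and -0.02 (adjusted p = 0.931), so neither caveolin was called at 48 h relative to that list. On the same scale Cav1 was higher at 2 weeks, by 0.37 (adjusted p = 0.0498) and 0.49 (adjusted p = 0.0078).

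Cavin1, the cavin required for caveolae to form, was lower in the LCA at 24 h, at -2.03 under vehicle (SE 0.33, adjusted p = 6.56e-05) and -1.66 under atorvastatin (adjusted p = 0.000845), and at 48 h at -0.96 and -1.51. Ehd2, an ATPase at the neck of caveolae, was lower at 24 h, at -1.14 and -1.15, and under atorvastatin already at 12 h (-0.80, adjusted p = 0.0138). Cavin2 was lower at 48 h (-1.15 and -1.35) and at 2 weeks (-0.88 and -1.24). Cavin3 was lower under vehicle at 24 h and 48 h (-0.69 at each), and Pacsin2, a membrane-bending protein, at 2 weeks (-0.66 and -0.64). Cavin4, a cavin of muscle cells, was the exception and was higher at 2 weeks (0.96 and 1.15), where all 7 tested smooth muscle markers were also higher, and the part of those cells in it was not tested. Of the 7 tested genes of this group beside Cav1 and Cav2, 0 were higher and 5 lower at 48 h under vehicle, and 0 and 4 under atorvastatin, against 36.2% and 31.8% of all genes called. At 24 h 3 and 2 were lower (14.3% and 13.1% of all genes), and at 2 weeks 1 was higher in each treatment and 3 and 2 were lower (27.8% and 29.9%).

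Proteins that bind or place the synthase were mixed. Hsp90aa1, the chaperone that binds the active enzyme, was lower in the LCA at 24 h (-0.62 and -0.61) and higher at 48 h (1.42, adjusted p = 2.19e-06, and 0.97, adjusted p = 0.00121) and at 2 weeks (0.55 and 0.74). Nos1ap, an adaptor of the neuronal synthase, was lower at 48 h (-1.44 and -1.64) and 2 weeks (-0.65 and -0.92). Cyb5r3, a reductase that sets the oxidation state of alpha globin in the vessel wall and so limits nitric oxide diffusion, was lower at 24 h (-0.78 and -0.74) and 48 h (-0.71 and -0.96). Dnm2, the dynamin of vesicle scission, was lower at 24 h (-0.61 and -0.68). Nosip, which binds the synthase and draws it off the membrane, was lower at 2 weeks under atorvastatin (-0.79, adjusted p = 0.000131) and not called under vehicle (-0.37, adjusted p = 0.0745), and Zdhhc21, which palmitoylates it, was called higher at 2 weeks under vehicle (0.63, adjusted p = 0.0278) and not under atorvastatin (0.34, adjusted p = 0.263). Of 8 tested, 4 and 3 were lower at 24 h with none higher, and at 48 h 2 were higher and 2 lower under vehicle, 1 and 4 under atorvastatin. The shares of all genes called were 14.3% and 13.1% at 24 h and 36.2% and 31.8% at 48 h.

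Gucy1a1 and Gucy1b1, the subunits of the nitric oxide receptor, were higher in the LCA at 2 weeks and called at no earlier time. They too are neighbours, on the - strand of chromosome 3, Gucy1b1 (probe set 1420872_PM_at) at chr3:82032004-82074711 and Gucy1a1 (1420533_PM_at) at chr3:82092427-82145946. Their promoters are shown because both genes were higher at 2 weeks, as the 250 bases before a RefSeq start at chr3:82074712-82074961 and chr3:82145651-82145900, written 5′ to 3′ on the gene's strand with the same motifs in capitals.
Gucy1b1: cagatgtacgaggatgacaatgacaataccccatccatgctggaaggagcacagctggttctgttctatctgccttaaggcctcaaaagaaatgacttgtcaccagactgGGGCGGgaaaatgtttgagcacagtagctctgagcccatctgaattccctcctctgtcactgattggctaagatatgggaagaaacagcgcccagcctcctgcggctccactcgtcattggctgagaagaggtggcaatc
Gucy1a1: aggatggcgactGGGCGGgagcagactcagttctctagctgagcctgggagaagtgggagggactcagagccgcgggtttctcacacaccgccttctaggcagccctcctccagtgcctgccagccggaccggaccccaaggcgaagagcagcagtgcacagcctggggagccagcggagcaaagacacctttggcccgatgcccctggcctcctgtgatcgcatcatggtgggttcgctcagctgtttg
Each of these windows held GGGCGG 1 time, 140 bases before the start in Gucy1b1 and 238 in Gucy1a1, and neither held TGACTCA or CACCC. A second RefSeq start of Gucy1a1, not shown, had CACCC 3 times in its window, a motif found in 57.5% of all promoters.

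At 2 weeks under vehicle Gucy1a1 read 9.98, 6.21, 8.69, 9.97 and 7.98 in the LCA of mice 1 to 5 and 4.37, 5.15, 5.64, 5.67 and 4.77 in the RCA. Under atorvastatin mice 6 to 10 had 8.32, 9.01, 9.18, 9.27 and 10.06 against 5.08, 5.09, 5.55, 4.65 and 5.25. The arteries did not overlap in either group, and mouse 2 was the low LCA. The difference was 3.45 under vehicle (SE 0.40, adjusted p = 2e-08), which is 10.9-fold higher, and 4.04 under atorvastatin (SE 0.40, adjusted p = 5.98e-10), which is 16.5-fold higher. Without mouse 2 the vehicle difference was 4.04 (adjusted p = 7.1e-10).

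Gucy1b1 at 2 weeks read 6.84, 4.45, 6.39, 7.71 and 6.08 in the LCA under vehicle and 4.21, 4.46, 4.43, 4.69 and 5.34 in the RCA. In mouse 2 the arteries were level, and in the other 4 the LCA was higher. Under atorvastatin it read 5.89, 7.14, 6.88, 6.73 and 7.60 against 4.54, 4.16, 4.97, 4.47 and 4.70, with no overlap. The differences were 1.67 (SE 0.30, adjusted p = 4.41e-05), or 2.09 (adjusted p = 1.36e-06) without mouse 2, and 2.28 (SE 0.30, adjusted p = 2.14e-07). In the RCA at 2 weeks Gucy1b1 lay above its array's median on 1 of 5 arrays under vehicle and 2 of 5 under atorvastatin, so these sizes are read against a control level near that median. The other probe sets, 2 of Gucy1a1 and 1 of Gucy1b1, were also higher at 2 weeks in both treatments, by 1.40 to 4.62.

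Smooth muscle markers also differed between the arteries at 2 weeks. At 2 weeks under vehicle the list difference was 4.19, -0.30, 2.97, 3.70 and 2.47 in mice 1 to 5, and the Gucy1a1 difference 5.62, 1.06, 3.05, 4.30 and 3.21. The mouse without a smooth muscle difference was the mouse with the least of Gucy1a1 and of Gucy1b1 (-0.01). At 12 h under vehicle, mouse 3 had a list difference of -2.34, a Gucy1a1 difference of -2.11 and a Gucy1b1 difference of -1.26, while in the other 4 mice the list was higher in the LCA. At 24 h under atorvastatin, mouse 9 had -1.95 on the list, -1.80 in Gucy1a1 and -1.13 in Gucy1b1. Without these 2 mice the Gucy1a1 group values were 0.56 in place of 0.02 at 12 h and -0.35 in place of -0.64 at 24 h, none of them called. Other mice differed in the 2 measures. At 24 h under atorvastatin the list differed by 0.23, 0.54, 0.55 and 0.45 in mice 6, 7, 8 and 10. Gucy1a1 was lower in the LCA in 4 of the 5 mice of that group, mouse 9 among them. At 48 h under vehicle the list difference ran from -0.54 to 0.63 (mean 0.14), and Gucy1a1 was lower in 4 of 5 mice. The part of smooth muscle cells in the guanylate cyclase differences was not tested.

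**Figure D4:**
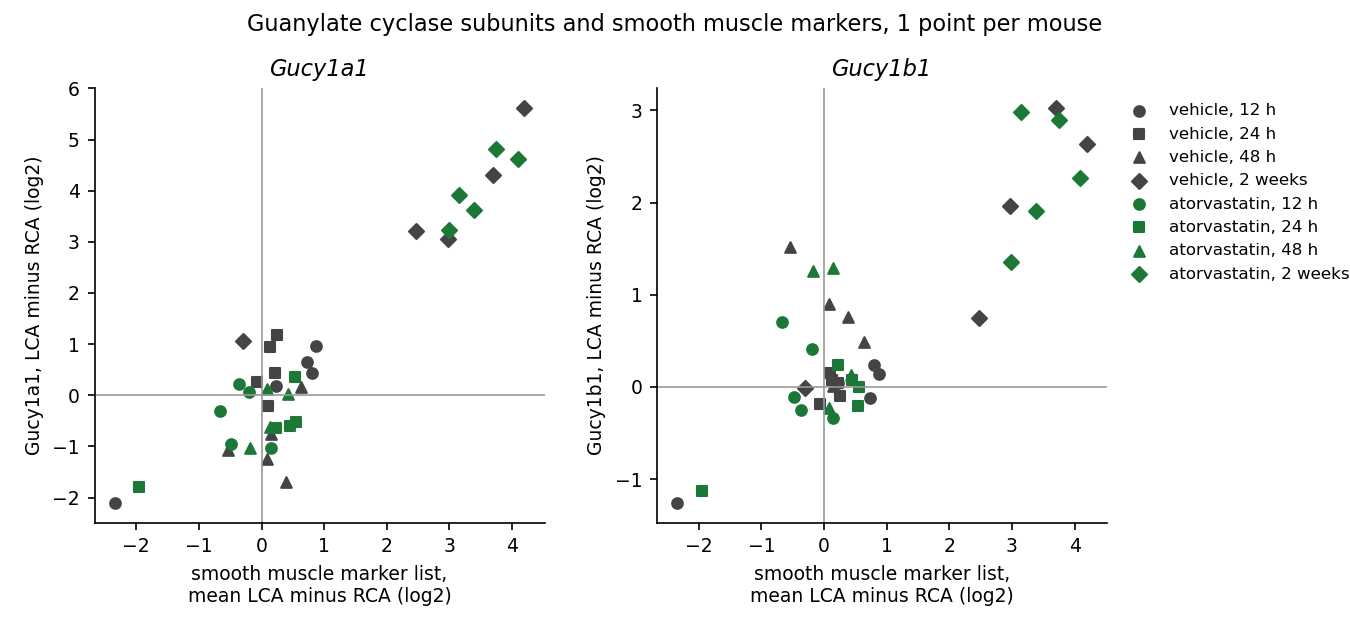
LCA minus RCA (log2) of Gucy1a1 and Gucy1b1 (y axes) against the mean LCA minus RCA of the smooth muscle marker list (x axes), 1 point per mouse, with colour for treatment and shape for time. The 2-week mice lie at the upper right except vehicle mouse 2 (list -0.30), and vehicle mouse 3 at 12 h (-2.34) and atorvastatin mouse 9 at 24 h (-1.95) lie at the lower left.

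At 48 h the mean differences of the subunits had opposite signs, and neither was called in either treatment. With atorvastatin they were -0.37 for Gucy1a1 (adjusted p = 0.559) and 0.61 for Gucy1b1 (adjusted p = 0.167). The other Gucy1a1 probe sets read -0.255 (adjusted p = 0.724) and -0.22 (adjusted p = 0.749) with vehicle. The other Gucy1b1 probe set read 0.65 there (adjusted p = 0.146). Under vehicle Gucy1a1 read 3.98, 4.13, 3.56, 4.42 and 4.52 in the LCA against 5.04, 4.89, 4.81, 4.26 and 6.21 in the RCA, lower in 4 of 5 mice (-0.92, SE 0.40, adjusted p = 0.0677). Gucy1b1 was higher in the LCA in 5 of 5 mice, by 1.51, 0.005, 0.90, 0.49 and 0.76 (0.73, SE 0.30, adjusted p = 0.0534). Neither passed the threshold, although Gucy1a1 did without mouse 4 (-1.19, adjusted p = 0.0286) and Gucy1b1 without mouse 2 (0.92, adjusted p = 0.0309), and none of the 5 LCA values of Gucy1a1 was above its array median. In the LCA alone Gucy1a1 fell by 1.33 from 24 h to 48 h under vehicle (SE 0.42, adjusted p = 0.0148) and then rose by 4.45 to 2 weeks (SE 0.42, adjusted p = 1.15e-08).

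Of 8 other tested genes of cGMP signalling, 4 were higher and 1 was lower at 2 weeks in each treatment, where 27.8% and 29.9% of all genes were called. Rgs2, a regulator of G-protein signalling that the cGMP kinase activates, was the largest, at 4.40 under vehicle (SE 0.48, adjusted p = 8.01e-09) and 3.93 under atorvastatin, and was already higher at 48 h (3.69 and 3.19), where the smooth muscle list differed by means of 0.14 and 0.12, the macrophage list by 2.04 and 2.56 and the neutrophil list by 4.13 and 3.98. The part of those cells in it was not tested. Kcnmb1, the beta subunit of the smooth muscle BK channel, was higher at 2 weeks (1.83 and 2.50), as was Pde1a, a phosphodiesterase that degrades cGMP (1.01 and 1.30). Vasp, a substrate of the cGMP kinase, was lower at 24 h under vehicle (-1.07, adjusted p = 0.0153) and higher at 48 h (1.35 and 0.89) and 2 weeks (0.98 and 0.98). Prkg1, the kinase itself, was higher at 24 h (1.36, adjusted p = 0.0146, and 1.52, adjusted p = 0.00661). Pde3a, whose product is inhibited by cGMP, was lower at 48 h (-0.93, adjusted p = 0.0105, and -1.26, adjusted p = 0.00275). At 48 h 3 were higher and 1 lower under vehicle, and 2 and 2 under atorvastatin, and at 24 h 1 and 1, and 1 and 0, against 36.2%, 31.8%, 14.3% and 13.1% of all genes.

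**Figure D5:**
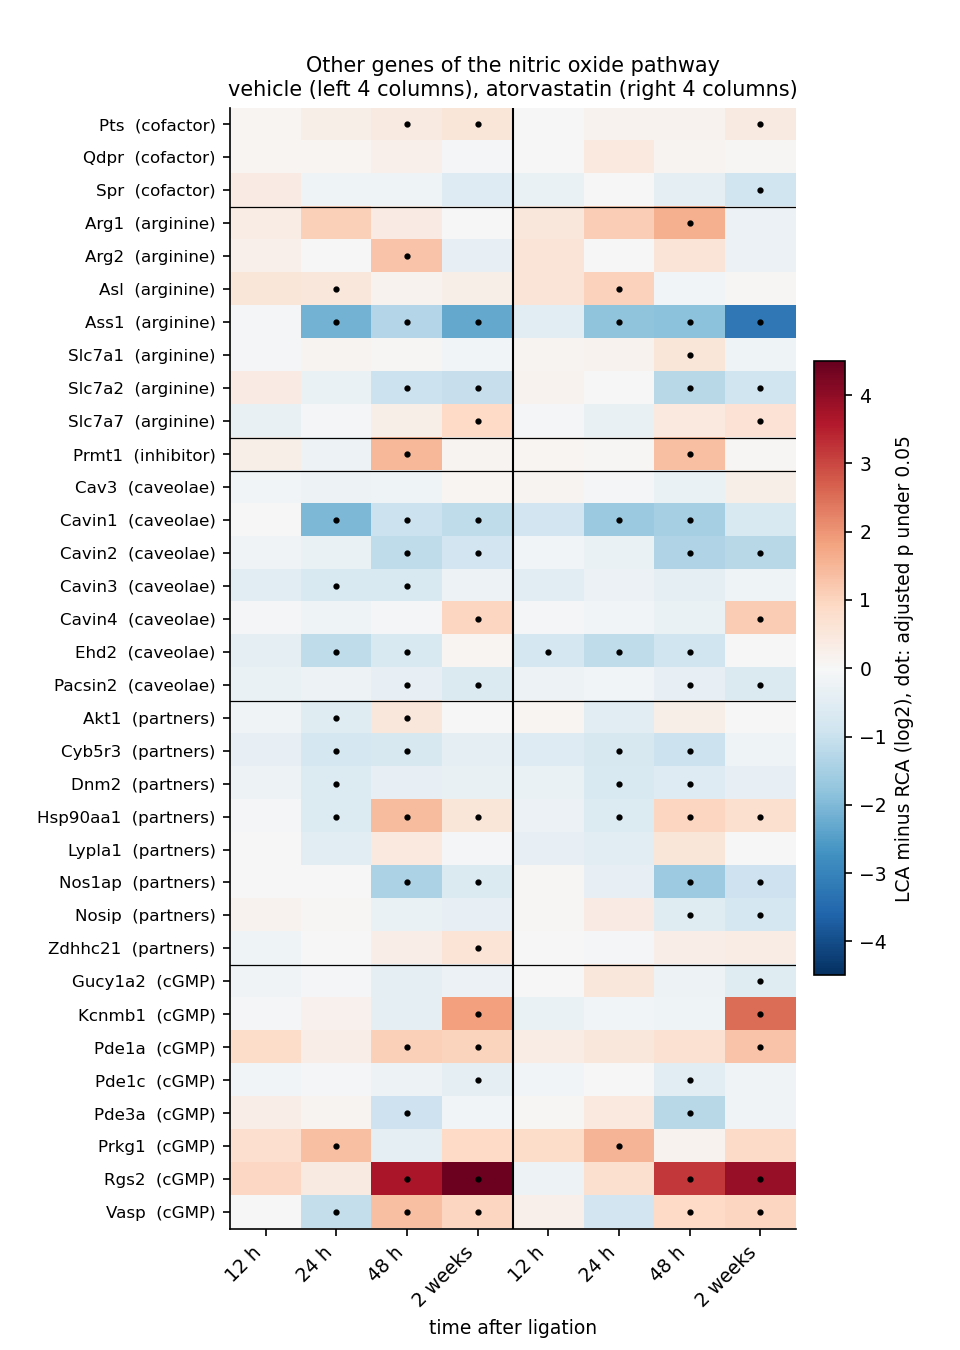
LCA minus RCA (log2, colour) of the other tested genes of the nitric oxide pathway (rows, grouped by role) in the 8 groups (columns: vehicle on the left, atorvastatin on the right, by time), with a dot where the adjusted p was under 0.05. Ass1 is blue from 24 h, Cavin1 at 24 h and 48 h, and Cavin2 and Nos1ap from 48 h. Rgs2 is the darkest red at 48 h and 2 weeks, with 4.40 at 2 weeks under vehicle.

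No difference between atorvastatin and vehicle was called for any of the 8 members. For the difference between the arteries, 0 of 8 members were called by limma at 12 h, 24 h, 48 h, 2 weeks and over the mean of the 4 times, where 0.00882%, 0%, 0%, 0.0176% and 0% of all genes were called. At an unadjusted p under 0.05 there were 0, 1, 1, 0 and 0 members: Gucy1a1 at 24 h (-1.17, SE 0.56) and Ddah2 at 48 h. In the LCA 0 members were called at any time, as were 0% of all genes, and 0 had an unadjusted p under 0.05. In the RCA 0 members were called, against 0.0441%, 0%, 0%, 0.00882% and 0.0176% of all genes, and Ddah2 had an unadjusted p under 0.05 at 12 h (0.64, SE 0.25, adjusted p = 0.348), at 48 h (1.18, SE 0.26, adjusted p = 0.178) and in the mean (0.33, SE 0.13, adjusted p = 0.389). Averaged over the times, atorvastatin minus vehicle in the difference was -0.07 for Nos3 (SE 0.13), 0.09 for Gch1 (SE 0.18), -0.05 for Ddah1 (SE 0.29), -0.11 for Ddah2 (SE 0.19), 0.01 for Cav1 (SE 0.07), 0.00 for Cav2 (SE 0.08), -0.11 for Gucy1a1 (SE 0.29) and 0.14 for Gucy1b1 (SE 0.22). These errors leave room for treatment effects of the size of the SE and more, so that equal responses were not shown.

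For the change of LCA minus RCA between times, no gene at all was called from 12 h to 24 h (0% in each treatment). At an unadjusted p under 0.05 there were 3 members under vehicle and 1 under atorvastatin. From 24 h to 48 h 3 members were called under vehicle (Gch1, Ddah1 and Ddah2, all upward; 27.8% of all genes) and 2 under atorvastatin (Gch1 and Ddah1; 24.1%). From 48 h to 2 weeks 3 were called in each treatment, Cav1, Cav2 and Gucy1a1 under vehicle (5.76%) and Cav1, Gucy1a1 and Gucy1b1 under atorvastatin (8.32%). From 12 h to 2 weeks Nos3, Ddah1, Gucy1a1 and Gucy1b1 were called in each (13.9% and 17.3%).

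In the LCA taken alone, 6 members changed over time under vehicle (49.5% of all genes) and 7 under atorvastatin (42.5%). The steps were 5 members from 24 h to 48 h under vehicle (31.7%) and 3 under atorvastatin (26.5%), 4 and 5 from 48 h to 2 weeks (15.2% and 14.8%), and 4 and 4 from 12 h to 2 weeks (33% and 28.3%). Cav1 was among them: it fell by 0.36 from 24 h to 48 h under vehicle (adjusted p = 0.017) and rose by 0.48 (adjusted p = 0.00489) and 0.51 (adjusted p = 0.00415) by 2 weeks. The control artery changed too. In the RCA of vehicle mice 2 members changed over time (26.8%), Ddah2 (adjusted p = 0.000264) and Nos3 (adjusted p = 0.024), and under atorvastatin 0 did by limma (2 at an unadjusted p under 0.05; 5.88%). From 12 h to 24 h in vehicle mice 3 were called (18.1%): Ddah2 rose by 1.15 (SE 0.25, adjusted p = 0.00287), Gch1 by 0.63 (SE 0.22, adjusted p = 0.039) and Nos3 by 0.55. These are the 3 members called lower in the LCA at 24 h under vehicle, and in the LCA 0 of the 8 were called by limma between 12 h and 24 h in either treatment (0 under vehicle and 1 under atorvastatin at an unadjusted p under 0.05; 0.476% and 0.167% of all genes). Under atorvastatin Nos3, Gch1 and Ddah2 were likewise called lower in the LCA at 24 h. There 0 members were called by limma in the RCA from 12 h to 24 h, with 2 at an unadjusted p under 0.05 (0.996% of all genes). Ddah2 also rose in the RCA of vehicle mice from 48 h to 2 weeks (1.02, adjusted p = 0.0449, 0.652%) and from 12 h to 2 weeks (1.45, adjusted p = 7.95e-05, 30.8%).

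The members formed a few pairs by their differences over the 39 mice, given as descriptions, since mice of a group share their time and treatment. Pearson's r was 0.78 between Cav1 and Cav2 (0.59 within groups), 0.77 between Gucy1a1 and Gucy1b1 (0.55), 0.70 between Ddah1 and Gucy1b1 (0.37), 0.66 between Gch1 and Ddah1 (0.47) and -0.52 between Nos3 and Ddah1 (-0.23). Gucy1a1 was also at 0.64 with Cav1 (0.17) and at 0.62 with Cav2 (0.37). Ddah1 and Ddah2 were at 0.22 (0.06). Of all tested genes the most like Nos3 was Arhgef10 (0.753, 0.55 within groups), with Klk8 (0.751) and She (0.746) next. The likeness was closer for Ddah1, to Serpinh1 (0.917), Tfdp1 (0.909) and Chsy1 (0.904), and for Gucy1a1, to Hspb2 (0.935), Kcnmb1 (0.934) and Acan (0.932). Gch1 was most like Fbl (0.819), Eif1ad (0.811) and Nop9 (0.804), and Ddah2 most like Fis1 (0.832), Arl2 (0.83) and Grcc10 (0.813). Cav1 was most like Kazald1 (0.859), Itgbl1 (0.856) and Fbln5 (0.845), Cav2 most like Cav1, Camk2d (0.761) and Fbln5 (0.759), and Gucy1b1 most like Plxnb1 (0.895), Cftr (0.881) and Pls3 (0.875).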

How the data were processed

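Each of the 78 arrays measured endothelium-enriched RNA of 1 carotid artery. The authors deposited log2 values that, per the submitters' processing notes, came from RMA, which corrects background, makes the arrays' distributions alike and summarises probes; its version is not given in the sources used here. RMA hides shifts shared by all genes and compresses differences near background, and the number of arrays limits the precision. Of 45118 probe sets 81 were controls; GEO's platform table names a single gene for 28898, more than 1 gene for 551 and no gene for 15588. No arrays held identical values. Per gene the probe set with the highest mean was kept. Genes above the array median on at least 4 arrays were tested.

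LCA minus RCA within each mouse, and the levels of each artery, were fitted over the 8 groups of mice with limma 3.58.1 (lmFit, eBayes) in R 4.3.3, with Benjamini-Hochberg adjustment over all 11344 genes. The fit was tested on simulated data. The pairing comes from the labels, which give both arteries of a mouse; deviations of same-mouse arteries correlated at a median of 0.088 (-0.34 to 0.513). Which sample belonged to which of the labels' batches is not given in the sources used here, so batch and group cannot be told apart; the number in the sample titles was used as an alternative block. Named beside the members are, from each of 7 pathway lists, up to 3 called genes per comparison by size of difference, and the 3 genes most like each member. The members and lists, and 14 lists of cell markers, were chosen with earlier results of these data known. Promoter sequences are RefSeq's for GRCm38.p6, with 7 of the 8 members matched. Alternatives covered the probe set, the filter, the scale, the block, the variance model, array weights, the Gapdh end ratio and leaving out each mouse.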

Additional observations from a re-analysis of the deposited data

Results flagged for a closer look

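In groups of 4 or 5 mice, 1 value stood apart from the rest by Dixon's criterion in 14 of 192 groups tested, where chance gives about 5%. Of these, 5 were in the LCA, 2 in the RCA and 7 in the difference between the arteries.

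Atorvastatin mouse 8 at 12 h had a Nos3 difference of -1.82 (the other 4 from -0.93 to -0.59) and a Gch1 difference of 1.23 (the others from -0.94 to -0.34). Gch1 in the LCA at 24 h was 5.92 in vehicle mouse 1 (the others from 6.64 to 6.87) and 6.24 in atorvastatin mouse 8 (from 7.0 to 7.25). Ddah1 was 7.71 in the LCA of vehicle mouse 2 at 2 weeks (from 10.19 to 10.71), and its difference was 0.11 in atorvastatin mouse 9 at 24 h (from -1.37 to -0.96). Ddah2 was 5.06 in the RCA of vehicle mouse 4 at 12 h (from 5.61 to 5.78), 5.16 in the LCA of vehicle mouse 4 at 2 weeks (from 6.24 to 6.62), and its difference was -2.05 in atorvastatin mouse 8 at 48 h (from -0.93 to -0.81). Mice of one number at different times are different animals. Cav1 was 11.38 in the LCA of atorvastatin mouse 9 at 24 h (from 11.71 to 11.81), and its difference was -0.14 in atorvastatin mouse 7 at 48 h (from -0.54 to -0.49).

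Vehicle mouse 3 at 12 h had differences of -2.11 in Gucy1a1 (the others from 0.18 to 0.96) and -1.26 in Gucy1b1 (from -0.12 to 0.23), and atorvastatin mouse 9 at 24 h had 4.80 of Gucy1b1 in the RCA (from 4.30 to 4.38). The smooth muscle list differed between the arteries of those mice by -2.34 and -1.95, and its part in these values was not tested.

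The difference between the arteries changed between times by limma's test of that change. From 24 h to 48 h it moved under vehicle by 1.78 in Gch1, 2.84 in Ddah1 and 1.29 in Ddah2, and under atorvastatin by 1.65 in Gch1 and 2.87 in Ddah1. From 48 h to 2 weeks it moved under vehicle by 0.53 in Cav1, 0.64 in Cav2 and 4.37 in Gucy1a1, and under atorvastatin by 0.60 in Cav1, 4.42 in Gucy1a1 and 1.67 in Gucy1b1. From 12 h to 2 weeks it moved under vehicle by -1.18 in Nos3, 1.83 in Ddah1, 3.42 in Gucy1a1 and 1.87 in Gucy1b1, and under atorvastatin by -0.86, 2.57, 4.44 and 2.20 in the same order.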

How the results depend on the processing

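Of 25 called differences of a member in 1 group, 18 were called under every alternative that kept all mice and 19 without any single mouse. Nos3 at 24 h, 48 h and 2 weeks was among both. Without the replicate block, that is with the paired arteries treated as separate samples, the members called were 0, 3, 4 and 5 under vehicle and 1, 3, 5 and 4 under atorvastatin, as with it. Array weights gave 5 members at 24 h and 7 at 48 h under vehicle and 5 at 24 h under atorvastatin. At 12 h under vehicle 1 member was called after a further quantile normalization or with the Gapdh end ratio as a covariate, and under atorvastatin 0 when only the groups compared were fitted or the title number was a block. Fitting only the groups compared, with fewer samples behind the variance, left 1 member at 48 h under atorvastatin. In the RCA over time under vehicle 1 member was called in that fit, with the title number as a block and with the Gapdh covariate. Leaving out 1 mouse gave 0 to 1 members at 12 h and 3 to 5 at 48 h under atorvastatin (0 without mouse 8, 3 without mouse 6), 1 to 2 in the RCA over time under vehicle (1 without mouse 3 or 4 of 24 h) and 0 to 1 under atorvastatin (1 without mouse 7 of 12 h). Centring on the endothelial list moved the median of all genes to between 0.0534 and 0.45, and the share of calls that were higher from 57.4% to 86.1% at 48 h under vehicle and from 52.2% to 89.0% under atorvastatin. It turned Cav1 to 0.046 at 48 h under atorvastatin and to 0.12 in the mean of the 8 groups. Other causes of these changes were not tested. Gucy1b1 leaves the table under the stricter filter of 39 arrays.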
